A study of Mus musculus with 60 samples.

Results

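A set of 10 genes of the last steps of red cell formation was followed through mouse whole blood: Bnip3l, Ulk1 and Gabarapl2 of mitophagy and autophagy, the ubiquitin conjugating enzymes Ube2o and Ube2l6, the F-box genes Fbxo7 and Fbxo9, the ubiquitin ligase genes Trim10 and Trim58, and Bpgm. They were matched by symbol and gene identifier, and all 10 were found among the 49315 genes counted. Blood was taken from 60 male CD2F1 mice, bought at 5 to 6 weeks of age, in 10 groups of 6. All mice were dosed by mouth every morning and evening for 6 days, with BIO 300, a powder of the synthetic isoflavone genistein, at 50, 100 or 200 mg/kg, or with its vehicle. The labels call these doses Low, Med and High. Each of these 4 treatments had a group bled on Day 0 (24 h past the final dose) and another on Day 1 (48 h past it). A further vehicle group and a further 200 mg/kg group received 9.2 Gy of total body irradiation (TBI) with gamma rays on Day 0, and their blood was drawn on Day 1, 24 h later.

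A reticulocyte is the young red cell that has lost its nucleus and still has to rid itself of mitochondria, ribosomes and other organelles. Mitochondria are marked by the receptor BNIP3L (also called NIX), which binds GABARAP-type proteins such as GABARAPL2 on the growing autophagosome, and the kinase ULK1 starts autophagosome formation. Soluble proteins and ribosomes are cleared through ubiquitin and the proteasome, with UBE2O as a main enzyme of that step, while BPGM makes the 2,3-bisphosphoglycerate that lowers the oxygen affinity of hemoglobin.

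The libraries held 15099415 to 45589415 counts (median 24877993.5), and the smallest count of any of the 10 genes in any mouse was 123, so counting error was small beside the spread between mice. Levels are given as CPM, read counts scaled to a common library size by edgeR's trimmed mean of M-values (TMM). None of the 15 red cell markers (such as Slc4a1 and Alas2) was at 0 in any group, and their summed level in vehicle mice on Day 0 ran from 41810 to 79940 CPM. Albumin (Alb), a liver gene, was over 1000 CPM in 6 mice of 5 groups, from 1112.4 to 16057.1 CPM. Some of the results that include these mice are also given without them. No libraries of the same group agreed within sampling noise.

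Per kilobase of exon, Ube2l6 was the most abundant of the 10 genes in vehicle mice on Day 0, with a median of 5055 CPM per kb. Bnip3l (2445) and Bpgm (2416) came next. Ube2o followed at 755.8, Trim10 at 241.9, Gabarapl2 at 209.4 and Fbxo9 at 118.9 CPM per kb. Fbxo7 (15.58), Trim58 (8.445) and Ulk1 (5.408) were the lowest. Of the neighbors in this order, Bnip3l and Bpgm, Trim10 and Gabarapl2, and Trim58 and Ulk1 overlapped between mice, and the others did not. In irradiated vehicle mice the median of Ulk1, at 14.34 CPM per kb, stood above those of Fbxo7 at 8.161 and Trim58 at 6.465. The ranges overlapped, at 8.594 to 16.98 for Ulk1, 2.658 to 16.57 for Fbxo7 and 1.581 to 12.08 for Trim58. The median of Ulk1 was also above that of Trim58 in the lowest dose group on Day 0, at 3.486 against 1.992. Gabarapl2 at 123.4 stood above Trim10 at 75.99 in irradiated vehicle mice. This order was not particular to irradiation, since unirradiated vehicle mice of the same day had it too, at 134.6 against 99.08.

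The genes lie on 9 chromosomes (GRCm38, GENCODE vM21). Bnip3l is at chr14:66985239-67008877 on the minus strand, Ulk1 at chr5:110784488-110810097 on the minus strand and Ube2l6 at chr2:84798828-84810335 on the plus strand. Ube2o (chr11:116537740-116581447) and Trim58 (chr11:58640465-58652404) share a chromosome. Exons of Fbxo7 overlap 314 bases of A230060F14Rik on the opposite strand, and the counting strand is not given in the sources used here, so reads there cannot be told apart. Counts of Bnip3l-ps, a processed copy, were 0.608 to 0.881% of those of Bnip3l, and reads could be split between the copies.

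RefSeq start sites (GRCm38.p6) were held for 8 of the 10 genes, in 10 windows, and those of Bnip3l and Ube2o were not used here. The 250 bases before each start were searched on both strands for AGATAA or TGATAA, the words bound by GATA factors such as the erythroid regulator GATA1, and for CCNCNCCC, the CACC-box word of Krüppel-like factors such as KLF1. AGATAA or TGATAA was present in 1 of the 8 genes (Trim10) and in 16.6% of all 32851 mouse windows. CCNCNCCC was present in 5 of the 8 (Bpgm, Fbxo9, Gabarapl2, Ube2l6 and Ulk1) and in 45.9% of all windows. The searched part upstream of the annotated gene is printed for Trim10, which held the GATA word, for Ube2l6, the most abundant gene, and for Ulk1, which moved apart from the other 9 after irradiation. Capitals mark the matches, which are TTATCT (the reverse complement of AGATAA) in Trim10 at chr17:36869324-36869573 on the plus strand, GGGTGGGG (the reverse complement of CCNCNCCC) in Ube2l6 at chr2:84798578-84798827 on the plus strand, and CCCCGCCC 3 times in Ulk1 at chr5:110810098-110810331 on the minus strand.
Trim10: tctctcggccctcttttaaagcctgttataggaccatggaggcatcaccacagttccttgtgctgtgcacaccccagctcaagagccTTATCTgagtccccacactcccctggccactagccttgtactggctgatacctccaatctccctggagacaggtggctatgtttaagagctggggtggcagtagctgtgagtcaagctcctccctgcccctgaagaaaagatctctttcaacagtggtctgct
Ube2l6: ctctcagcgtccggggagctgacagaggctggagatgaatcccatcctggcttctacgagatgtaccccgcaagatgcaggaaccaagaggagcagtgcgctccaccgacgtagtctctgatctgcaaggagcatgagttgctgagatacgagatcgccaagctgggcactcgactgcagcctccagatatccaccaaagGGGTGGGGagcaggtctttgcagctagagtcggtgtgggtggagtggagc
Ulk1: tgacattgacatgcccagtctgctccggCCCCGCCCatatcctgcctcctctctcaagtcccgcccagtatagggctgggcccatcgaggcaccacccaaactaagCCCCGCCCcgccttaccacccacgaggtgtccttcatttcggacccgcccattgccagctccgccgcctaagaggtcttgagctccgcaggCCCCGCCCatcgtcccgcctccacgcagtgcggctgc
The plus-strand windows end at the base before the annotated gene. These matches describe the letters of the windows and are not measured binding.

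Doses of 100 and 200 mg/kg were followed on Day 1 by higher levels of all 10 genes than in vehicle mice of the same day. Ube2l6, the E2 of the ubiquitin-like modifier ISG15 that is also highly expressed in maturing red cells, had the largest difference in both. Ube2l6 ran from 5080 to 9853 CPM (median 6753) in vehicle mice, from 24530 to 35350 (median 27790) after 100 mg/kg and from 24090 to 47350 (median 32260) after 200 mg/kg. All 12 treated mice were above all 6 vehicle mice. The log2 fold change was 2.08 (SE 0.35, adjusted p = 0.000137) after 100 mg/kg and 2.32 (SE 0.32, adjusted p = 2.32e-05) at 200 mg/kg, from edgeR's quasi-likelihood test with Benjamini-Hochberg adjustment over all genes. In bulk blood, a change in the number of reticulocytes and a change in RNA per reticulocyte cannot be told apart. The 2 doses were compared with the same 6 vehicle mice, so their results are not independent.

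The mitophagy and autophagy genes rose at both doses. Bnip3l, the mitochondrial receptor, ran from 5521 to 9733 CPM (median 6909) in vehicle mice, from 14130 to 33320 (median 19910) after 100 mg/kg and from 17270 to 30600 (median 21630) at 200 mg/kg. Ulk1 ran from 19.63 to 32.91 CPM (median 23.35), from 48.74 to 79.38 (median 53.7) and from 44.47 to 66.55 (median 60.43) in the same groups. Gabarapl2 ran from 246.1 to 480.4 CPM (median 313), from 732.8 to 1532 (median 970.8) and from 827.1 to 1627 (median 1130). The treated and vehicle groups did not overlap for any of the 3 genes. Over all genes tested, 17.2% at 100 mg/kg and 16.5% at 200 mg/kg lay higher without overlap. At 200 mg/kg the log2 fold changes were 1.76 (SE 0.28) for Bnip3l, 1.32 (SE 0.15) for Ulk1 and 1.92 (SE 0.20) for Gabarapl2, and at 100 mg/kg they were 1.64 (SE 0.34), 1.31 (SE 0.15) and 1.72 (SE 0.20).

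Of the ubiquitin pathway genes, Fbxo7, whose loss disturbs red cell maturation, and Trim58, a ligase that acts late in erythroblast maturation, also rose without overlap between groups. Trim58 ran from 6.488 to 16.69 CPM (median 8.942) in vehicle mice, from 25.59 to 39.67 (median 29.26) after 100 mg/kg and from 24.92 to 51.39 (median 35.56) at 200 mg/kg. Its log2 fold changes were 1.70 (SE 0.21, adjusted p = 8.84e-06) and 2.00 (SE 0.23, adjusted p = 3.66e-06). Fbxo7 changed by 1.59 (SE 0.18) and 1.78 (SE 0.18) on the log2 scale, from a vehicle median of 66.56 CPM to 186.1 and 214.8 CPM. Ube2o, Fbxo9, Trim10 and Bpgm passed the same test but their groups overlapped, because the highest vehicle mouse reached into the treated range. Bpgm, for example, ran from 3498 to 10220 CPM (median 4665) in vehicle mice and from 9604 to 20200 (median 15180) at 200 mg/kg, with a log2 fold change of 1.5 (SE 0.32, adjusted p = 0.000971). Ube2o, with a vehicle median of 1602 CPM, had medians of 4210 and 5692 CPM and log2 fold changes of 1.25 (SE 0.34) and 1.58 (SE 0.36).

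At 100 mg/kg all 10 genes rose, with log2 fold changes from 1.04 (Fbxo9) to 2.08, against 25.0% of the 23699 genes tested, and all 10 were DEGs (adjusted p under 0.05 and absolute log2 fold change over 1), against 18.2%. At 200 mg/kg 10 of 10 rose, from 1.32 (Ulk1) to 2.32, against 23.6% of 23513 genes, and all were DEGs, against 17.3%. These counts depended on the scaling. Many genes fell on Day 1 at these doses, and the median gene moved by -0.38 and -0.48 on the TMM scale and by -1.75 and -1.96 on the scale of total counts. With total counts, 2 of the 10 rose at 100 mg/kg (Ube2l6 and Gabarapl2, against 7.72% of genes) and 3 at 200 mg/kg (Ube2l6, Trim58 and Gabarapl2, against 6.63%). On that scale the medians of Bnip3l were 9935 CPM in vehicle mice, 11340 after 100 mg/kg and 12020 at 200 mg/kg, and the groups overlapped. Ube2l6 ran on that scale from 8302 to 11360 CPM in vehicle mice, 14270 to 17190 after 100 mg/kg and 14280 to 19640 at 200 mg/kg. Its log2 fold changes were 0.70 (SE 0.17) and 0.78 (SE 0.14). Ulk1, Fbxo9 and Trim10 had values just below 0 with total counts at both doses, from -0.33 to -0.01, as did Ube2o (-0.08) and Bpgm (-0.18) at 100 mg/kg, and none passed the test. The vehicle mice of Day 1 had lower values than those of Day 0 in all 10 genes, without an edgeR call. On the TMM scale Trim10 after 100 mg/kg, with a median of 184.4 CPM per kb, was below vehicle mice of Day 0 (241.9). Fbxo9 was lower as well, at 103.1 against 118.9, and the other genes were above. At 200 mg/kg all 10 medians were above those of vehicle mice on Day 0.

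**Figure D1:**
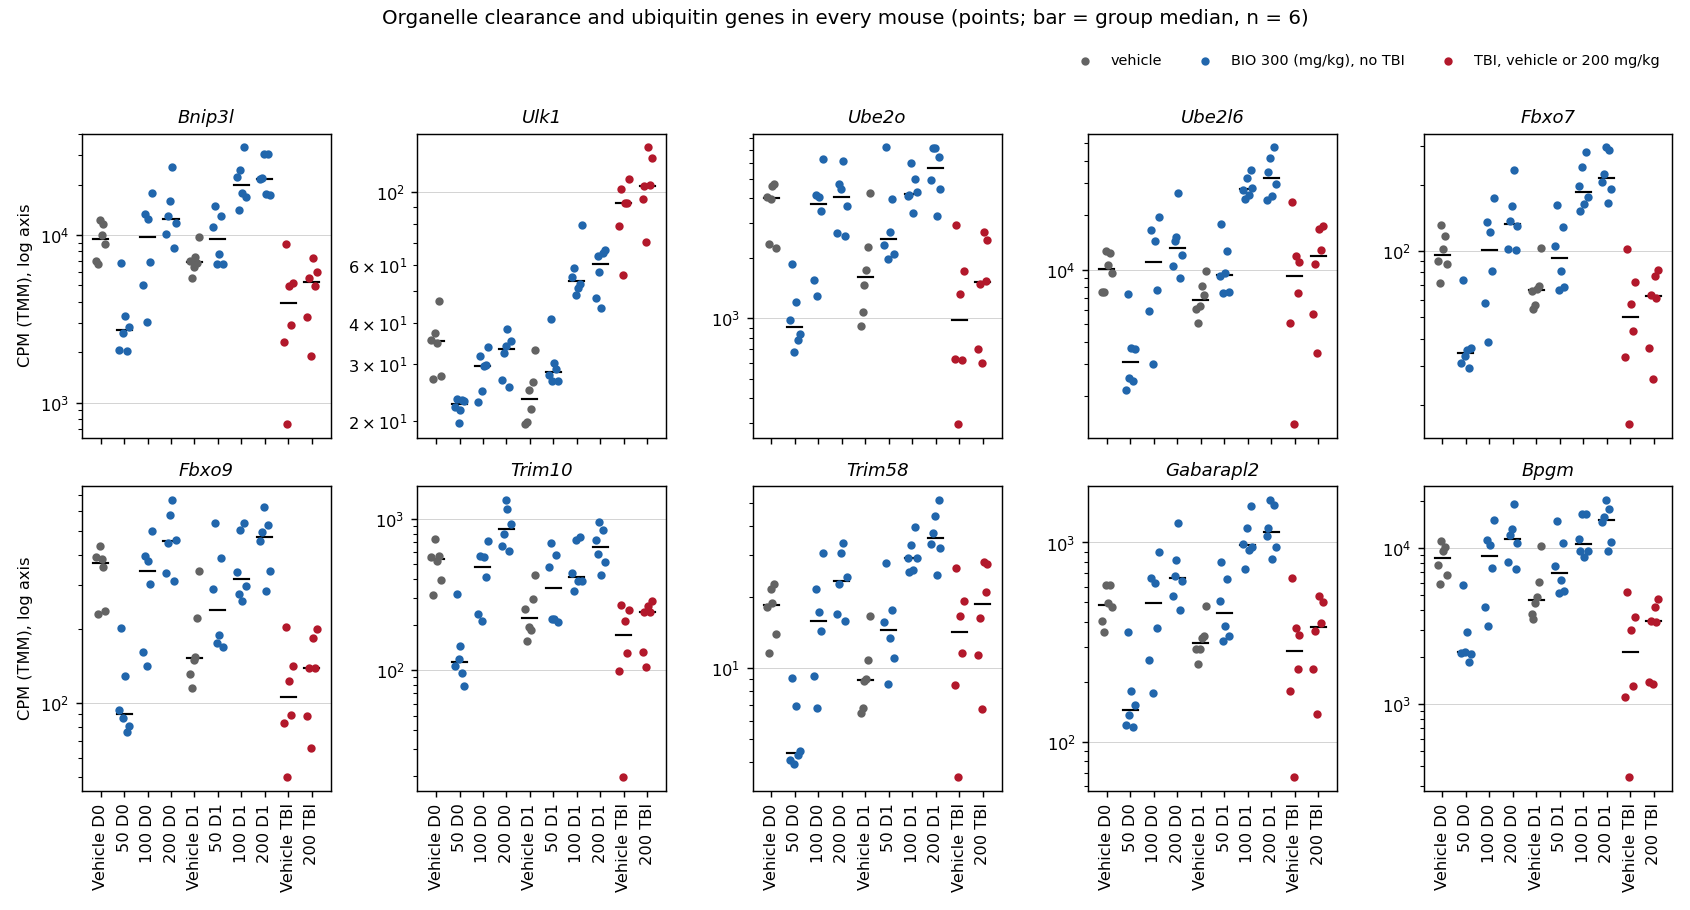
CPM on a log scale (TMM scaling) of each of the 10 genes in every mouse, by group (n = 6 each), with points for mice and a bar for the group median. At 100 and 200 mg/kg on Day 1 all 10 medians lie above the vehicle median of that day (with total counts 2 and 3 of the genes rose, and Ulk1, Fbxo9 and Trim10 at both doses and Ube2o and Bpgm at 100 mg/kg had fold changes below 0), and Ulk1 is highest in the irradiated groups.

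**Figure D2:**
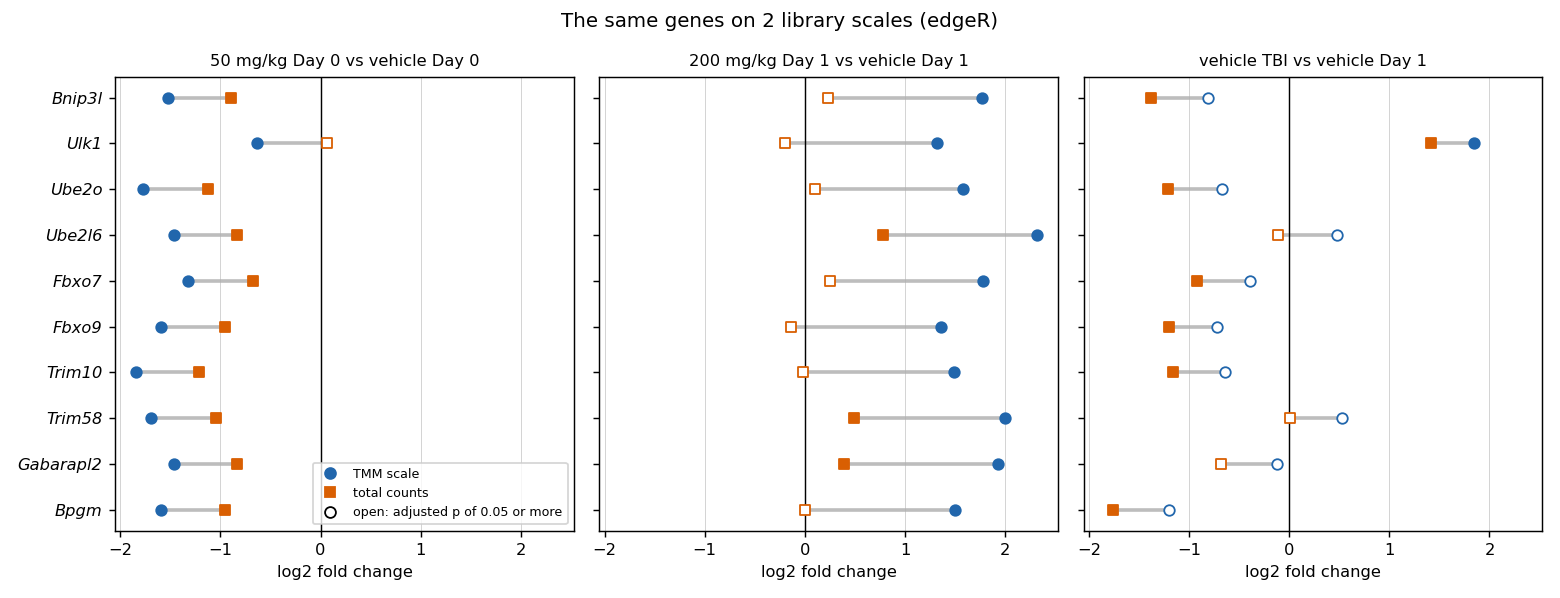
Log2 fold changes of the same 10 genes under TMM scaling (circles) and total counts (squares), for the 50 mg/kg Day 0, 200 mg/kg Day 1 and irradiated vehicle comparisons, with open symbols where the adjusted p was 0.05 or more. On Day 1 at 200 mg/kg the TMM values run from 1.32 to 2.32 and the total count values from -0.20 to 0.78, whereas the Ulk1 value after TBI is 1.85 and 1.42.

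Other blood cell genes moved in the same mice. All 7 platelet genes (Ppbp, Pf4 and others) rose at both doses (also with total counts), and their summed level went from 2038 to 4119 CPM in vehicle mice to 15470 to 35320 after 100 mg/kg and 14910 to 25870 at 200 mg/kg. Of all genes tested, 25.0% rose and 40.6% fell at 100 mg/kg, and 23.6% rose and 39.9% fell at 200 mg/kg. All 8 B cell genes fell, from a summed 855.4 to 1325 CPM in vehicle mice to 237 to 590.6 and 139.9 to 463 CPM. Of the T cell genes, 7 of 8 fell at each dose, from 327.5 to 424.1 CPM to 115.5 to 188.3 and 98.87 to 236.8 CPM. Red cell genes outside the 10 moved as well, since 20 of 20 other late erythroid genes rose at each dose, with a median log2 fold change of 1.72 and 1.90. With total counts 8 of the 20 rose at 100 mg/kg and 12 at 200 mg/kg (against 7.72% and 6.63% of all genes), with medians of 0.35 and 0.36. None of these markers was at 0 in a group, and their part in the changes of the 10 genes was not tested.

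A measure free of library scaling is the count of a gene over the geometric mean of all 10 genes in the same mouse, on the log2 scale, given here as a description without a test. After 100 mg/kg, Ube2l6 stood 0.61 higher in this ratio than in vehicle mice, at 4.63 to 4.87 against 3.89 to 4.42. Trim58 stood 0.27 higher and Fbxo9 0.40 lower, and none of the 3 ranges overlapped with vehicle. Set against the same mean, 51.7% of all genes had no overlap at 100 mg/kg and 56.3% at 200 mg/kg. After 200 mg/kg the same ratio differed by 0.30 for Trim58 and by -0.32 for Fbxo9 without overlap, and by 0.58 for Ube2l6 with overlap. At these doses the ratio of every gene moved by less than 1 log2 unit.

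**Figure D3:**
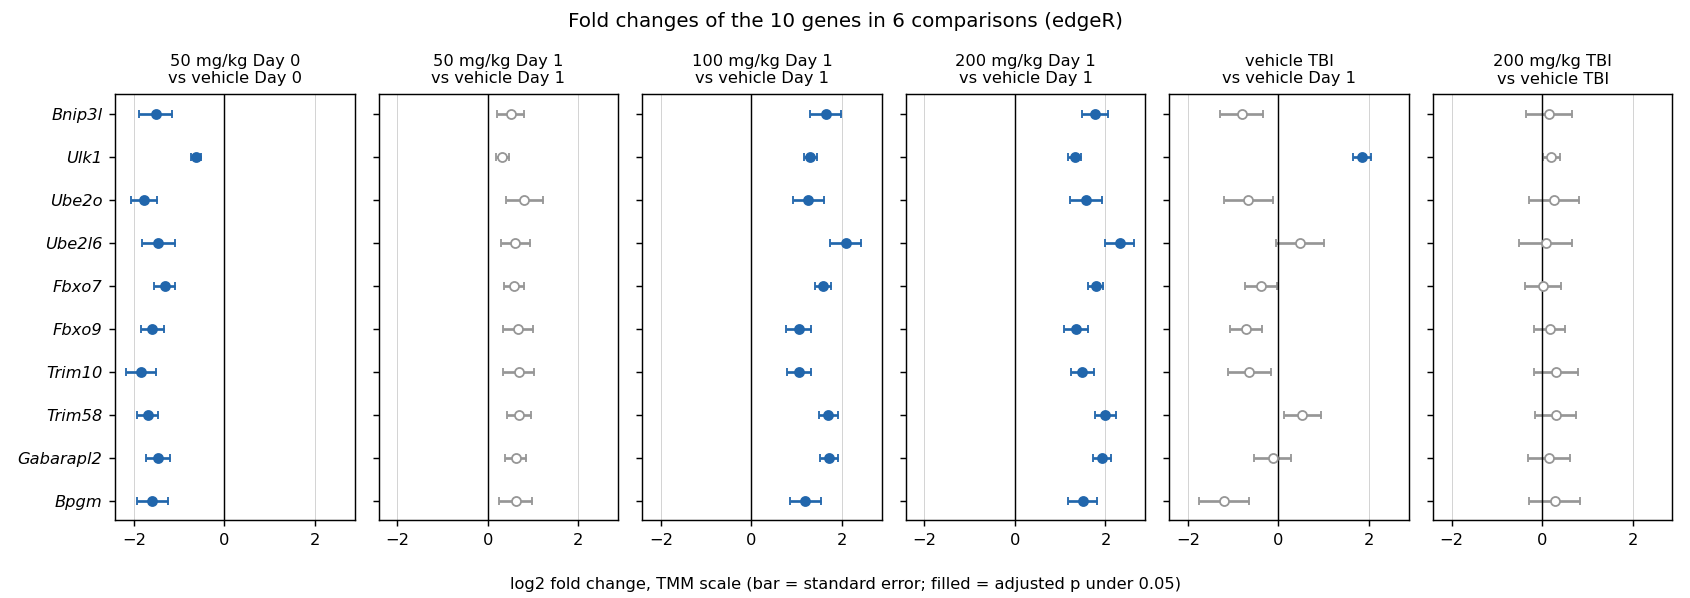
Log2 fold changes of the 10 genes in 6 comparisons of groups (TMM scaling, edgeR), with bars for the standard error and filled points where the adjusted p was under 0.05. The Day 1 values at 100 and 200 mg/kg lie from 1.04 to 2.32 (with total counts from -0.33 to 0.78) and those at 50 mg/kg on Day 0 from -1.84 to -0.63 (with total counts Ulk1 is at 0.06).

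At 50 mg/kg the change came on Day 0 and went the other way. Bnip3l ran from 2043 to 6792 CPM (median 2715) against 6673 to 12320 (median 9436) in vehicle mice of that day. Trim58 ran from 3.946 to 9.098 CPM (median 4.366) against 11.59 to 22.66 (median 18.51). Trim10, a ligase needed for terminal erythroid differentiation, ran from 78.02 to 319.8 CPM (median 112.2) against 314.7 to 736.3 (median 543.2). In these 3 genes, as in the other 7, mouse 2 was the highest of the 6 treated mice, and it alone reached the vehicle range in Bnip3l and Trim10. The log2 fold changes were -1.52 (SE 0.36, adjusted p = 0.0147) for Bnip3l, -1.70 (SE 0.23, adjusted p = 0.00255) for Trim58 and -1.84 (SE 0.33, adjusted p = 0.00337) for Trim10.

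All 10 genes fell at 50 mg/kg on Day 0, against 9.87% of 24485 genes tested, and 9 were DEGs, against 4.38%. For 6 of the 10 the groups did not overlap (Ulk1, Ube2o, Ube2l6, Fbxo9, Trim58 and Bpgm), against 4.39% of genes that lay lower without overlap, and with total counts this held for 4 of the 10, against 1.19%. Without mouse 2, all 10 fell by 0.65 to 2.25 on the log2 scale, against 10.2% of genes. With total counts 9 of the 10 fell, from -1.22 to -0.67 on the log2 scale, against 3.61% of genes, and 3 of the 10 were DEGs, against 1.25%. Ulk1 was the exception, with a log2 fold change of -0.63 (SE 0.12, adjusted p = 0.00393) on the TMM scale and 0.06 (SE 0.11) with total counts, under which the median of all genes went from 0.03 to 0.69. Relative to the geometric mean of the 10, Ulk1 was 0.94 higher than in vehicle mice, with overlap of the groups through mouse 2. The other late erythroid genes fell in 19 of 20 cases and the platelet genes in 7 of 7, and the B cell genes rose in 4 of 8 (4.21% of all genes rose). With total counts 17 of the 20 and 1 of the 7 fell and 8 of the 8 B cell genes rose (49.4% of all genes rose), and their part was not tested.

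The other drug groups without irradiation gave no call. At 100 mg/kg on Day 0 edgeR called 0 of the 10 genes (0 at an unadjusted p under 0.05, against 3.02% of genes, and 0 by DESeq2) and 0.0% of 24000 genes. The 6 mice of that group varied widely, for example from 3023 to 17720 CPM in Bnip3l, and the 95% interval of its log2 fold change ran from -0.93 to 1.06. At 200 mg/kg on Day 0 edgeR called 0 of the 10 (4 at an unadjusted p under 0.05, against 9.01% of genes, and 0 by DESeq2) and 0.0% of 23795 genes. The largest value was 0.84 for Trim10 (95% interval 0.36 to 1.31). At 50 mg/kg on Day 1 edgeR called 0 of the 10, against 0.00829% of 24118 genes that rose, with values from 0.32 for Ulk1 to 0.81 for Ube2o. There 4 of the 10 had an unadjusted p under 0.05, against 18.5% of genes. DESeq2 called 0 of the 10, against 2.74% that rose and 0.979% that fell. Vehicle mice on Day 1 against Day 0 also gave 0 edgeR calls among the 10 (7 at an unadjusted p under 0.05, against 12.3% of genes) and 0.0% of 24375 genes. All 10 values were below 0, the lowest at -1.05 for Trim10. DESeq2 called 3 of the 10 lower there (Fbxo9, Trim10 and Trim58), against 1.45% of genes.

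The effects differed between the days. The difference of the 100 mg/kg effect on Day 1 from that on Day 0 was tested in an edgeR fit of 24 mice. It was above 0 and passed the test for 9 of the 10 genes, against 20.7% of genes (Bpgm, at 1.17, did not pass). For 200 mg/kg it was above 0 and passed for 8 of the 10, against 18.7% (Trim10, at 0.685, and Bpgm, at 1.05, did not pass). Ulk1 had the smallest adjusted p in both, with differences of 1.57 (SE 0.22, adjusted p = 3.36e-06) and 1.44 (SE 0.22, adjusted p = 1.05e-05). Each difference includes the step of vehicle mice from Day 0 to Day 1, which was below 0 for all 10 genes without an edgeR call. With total counts 1 of the 10 passed in each (against 5.51% and 4.47% of genes), and the fit of all 60 mice gave 5 for 200 mg/kg (against 14.1% of genes). Without the mice with liver RNA 7 of the 10 passed in each, against 19.4% and 17.9% of genes. For 200 mg/kg, Bnip3l (-0.07), Fbxo9 (-0.34) and Fbxo7 were below 0 with total counts, and for 100 mg/kg Fbxo9 (-0.18) and Trim10 were.

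Irradiation separated Ulk1, the kinase that starts autophagy, from the other 9 genes. Ulk1 ran from 55.76 to 110.1 CPM (median 93.02) in irradiated vehicle mice against 19.63 to 32.91 (median 23.35) in vehicle mice of the same day. Every irradiated mouse was above every unirradiated vehicle mouse of either day, the highest of which was at 46.51 CPM, and 11.1% of all genes lay higher than on Day 1 without overlap. The log2 fold change against Day 1 was 1.85 (SE 0.19, adjusted p = 1.87e-05), and against Day 0 it was 1.46 (SE 0.22, adjusted p = 0.000321). With total counts the values were 67.93 to 105.8 CPM against 29.45 to 37.94 on Day 1, with a log2 fold change of 1.42 (SE 0.15, adjusted p = 3.33e-05, against 15.3% of genes that rose), so the direction and the call did not depend on this scaling. Without the mice with liver RNA the log2 fold change was 2.06 (SE 0.15).

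The other 9 genes did not pass the test against vehicle on Day 1, and their groups overlapped. Of the 10, 1 rose (Ulk1, against 24.4% of 25146 genes) and 0 fell by edgeR (22.4% of genes) or by DESeq2. In edgeR 2 of the 10 had an unadjusted p under 0.05, against 55.2% of genes. Bpgm had a log2 fold change of -1.20 (SE 0.56, adjusted p = 0.0902), from 341.1 to 5216 CPM (median 2142) against 3498 to 10220 (median 4665). Ube2l6 was at 0.48 (SE 0.53, 95% interval -0.56 to 1.51), from 1405 to 23660 CPM (median 9245). The irradiated mice were spread widely, with the highest mouse 16.8 times the lowest in Ube2l6 and 13.8 times in Trim10, against 1.94 and 2.77 times in vehicle mice on Day 1. Mouse 51, with 16057.1 CPM of Alb, was the lowest of the 6 in all 10 genes, and mouse 49, with 3447 CPM, was the other irradiated vehicle mouse over 1000 CPM. Without those mice Ube2l6 (0.95, SE 0.38) and Trim58 (0.94, SE 0.27) passed the test as well, and 3 of the 10 rose (against 26.8% of genes). With total counts 6 of the 10 fell (Bnip3l, Ube2o, Fbxo7, Fbxo9, Trim10 and Bpgm, against 27.5% of genes), from -1.76 for Bpgm to -0.92 for Fbxo7.

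Against vehicle mice of Day 0, 1 of the 10 rose (Ulk1, against 19.6% of 24751 genes) and 4 fell (Ube2o, Fbxo9, Trim10 and Bpgm, against 16.8%). Bpgm fell by 1.69 (SE 0.58, adjusted p = 0.0358) and Fbxo9 by 1.44 (SE 0.33, adjusted p = 0.00471) on the log2 scale. Without the mice with liver RNA, 1 of the 10 rose and 4 fell as well, against 27.2% and 29.9% of genes. This comparison uses the same irradiated mice as the one with Day 1. It also differs in sampling day, so irradiation and day cannot be told apart in it. In unirradiated vehicle mice the 4 genes that fell had values below 0 on Day 1 against Day 0. These were -1.05 for Trim10, -0.91 for Ube2o, -0.87 for Fbxo9 and -0.64 for Bpgm, and none passed edgeR's test.

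Within a mouse, the genes moved apart after irradiation. The ratio of Ulk1 to the geometric mean of the 10 ran from -2.79 to -0.63 (median -1.84) in irradiated vehicle mice against -4.33 to -3.81 (median -4.05) in vehicle mice on Day 1, which is 2.24 higher in the mean. Bpgm stood 1.18 lower, at 1.99 to 2.90 against 3.54 to 3.95. Bnip3l was at 3.12 to 3.64 against 3.88 to 4.44, lower by 0.75, and Trim58 at -4.75 to -4.55 against -5.63 to -5.31, higher by 0.74. These 4 genes had no overlap between the groups and the other 6 did, against 13.8% of all genes without overlap when set against the same mean. Since a ratio is taken against a mean that holds Ulk1 itself, a higher Ulk1 lowers the ratios of the others.

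**Figure D4:**
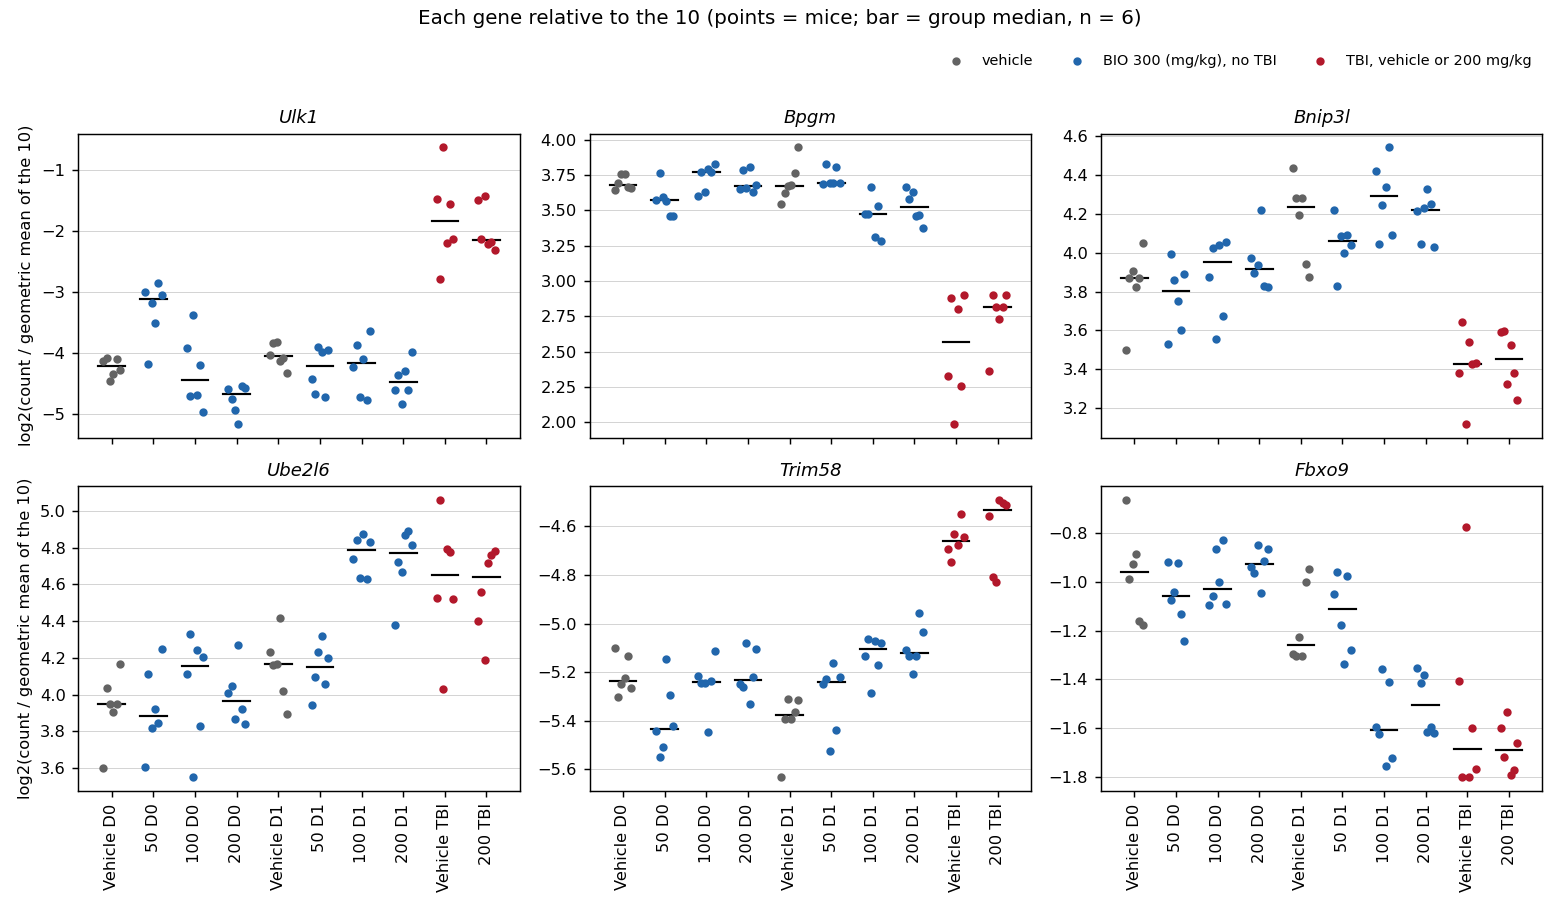
Log2 ratio of the count of 6 genes to the geometric mean of the 10 genes in the same mouse, for every mouse and group (n = 6 each), with a bar for the group median. The Ulk1 ratio is higher in both irradiated groups, with medians of -1.84 and -2.15 against -4.05 in vehicle mice on Day 1, and the Bpgm ratio is lower, with medians of 2.57 and 2.82 against 3.67 (points at 50 mg/kg on Day 0 show mouse 2 apart from the other 5 for Ulk1).

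The irradiated mice also had other cell type markers at other levels. All 8 neutrophil genes rose (7 with total counts), with a summed 1183 to 6670 CPM against 434.1 to 706.3 in vehicle mice on Day 1. All 7 platelet genes rose, at 4434 to 30260 CPM against 2038 to 4119, and all 8 B cell genes fell, to 57.5 to 147.9 CPM. All 12 p53 target genes rose, at 667.1 to 1164 CPM against 249.8 to 279.3. Of all genes tested, 24.4% rose and 22.4% fell, and with total counts 15.3% rose and 27.5% fell. No gene of these lists was at 0, and their part in the level of Ulk1 was not tested.

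After 200 mg/kg and TBI the 10 genes overlapped in level with those after vehicle and TBI. Ulk1 ran from 70.55 to 137.3 CPM (median 104.9), Bnip3l from 1907 to 7303 (median 5238) and Bpgm from 1339 to 4724 (median 3382). edgeR called 0 of the 10 genes (0 at an unadjusted p under 0.05, against 2.76% of genes, and 0 by DESeq2) and 0.0% of 24916 genes. The intervals were wide, from -0.17 to 0.59 for Ulk1 and from -1.08 to 1.24 for Ube2l6 on the log2 scale. In counts simulated for this comparison, edgeR recovered 0% of genes changed by 1 log2 unit and 18% of those changed by 2. The lack of a call therefore does not show equal levels. No gene had ratios to the mean of the 10 without overlap between the irradiated groups.

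Compared with unirradiated mice at 200 mg/kg on Day 1, the irradiated mice at that dose had 9 of the 10 genes lower (against 9.58% of 23610 genes) and Ulk1 higher (17.6% of genes rose). Bnip3l fell by 2.35 (SE 0.43, adjusted p = 0.00152) and Bpgm by 2.35 (SE 0.42, adjusted p = 0.0013) on the log2 scale, and neither overlapped between groups (5.65% of genes lay lower without overlap). Ulk1 rose by 0.82 (SE 0.18, adjusted p = 0.00429), and by 1.68 (SE 0.13) with total counts. With total counts 8 of the 10 were lower, against 2.28% of genes, and Trim58 at -0.29 (SE 0.21) did not pass the test. Without mouse 57, which had liver RNA, 9 of the 10 were lower and 1 higher, against 12.7% and 24.1% of genes.

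The TBI effect at 200 mg/kg was set against that in vehicle mice in an edgeR fit of 24 mice. The difference was below 0 for all 10 genes and passed the test for 5 of the 10 (against 12.1% of genes). These ran from -2.02 (SE 0.65, adjusted p = 0.0194) for Ube2l6 to -0.89 (SE 0.24, adjusted p = 0.00582) for Ulk1. Fbxo7, Gabarapl2 and Trim58 were between these values. The remaining genes, from -1.40 for Bnip3l to -0.97 for Trim10, did not pass. With total counts 0 of the 10 passed (against 3.03% of genes that passed below 0) and Ulk1 was at 0.26. Without the mice with liver RNA 9 of the 10 passed (all but Ube2o, against 15.7% of genes).

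Genes that work with the 10 were read from lists, whose counts stand against 25.0% of all genes that rose and 40.6% that fell at 100 mg/kg on Day 1, 23.6% and 39.9% at 200 mg/kg, and 24.4% and 22.4% after vehicle and TBI. With total counts these shares were 7.72% and 68.5%, 6.63% and 71.2%, and 15.3% and 27.5%. Of the other Atg8 family genes, 4 of 4 rose at each of the 2 doses, as Gabarapl2 did. After TBI 3 of 4 rose, when Gabarapl2 was at -0.12 and did not pass the test. With total counts 4, 3 and 2 of them rose. Gabarapl1 had the largest change of them, with log2 fold changes of 2.79 (SE 0.22), 2.79 (SE 0.19) and 2.35 (SE 0.26). Of 13 other mitophagy receptors and adaptors, 11 rose and 0 fell at 100 mg/kg, 11 rose and 1 fell at 200 mg/kg and 8 rose and 0 fell after TBI. Tollip led that list in all 3 comparisons, and Bnip3, the paralog of Bnip3l, rose by 1.96 (SE 0.48, adjusted p = 0.00491) after TBI, and by 0.89 without the mice with liver RNA. With total counts the mitophagy list gave 2 higher and 5 lower for 100 mg/kg, 2 and 6 for 200 mg/kg, and 4 and 1 after TBI.

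Of 23 core autophagy genes, 12 rose and 5 fell at 100 mg/kg, 12 rose and 4 fell at 200 mg/kg and 10 rose and 4 fell after TBI, with total counts giving 2 and 18, 3 and 17, and 3 and 4. Wipi2, which reads the lipid signal of the forming autophagosome, rose by 1.88 (SE 0.12) and 1.97 (SE 0.16) at the 2 doses, and Pik3r4, a subunit of the lipid kinase that makes this signal, fell by 1.81 (SE 0.20) at 100 mg/kg. After TBI, Atg4a, a protease that processes Atg8 proteins, had the largest change of the list and fell by 1.32 (SE 0.34, adjusted p = 0.00689). Atg3 and Atg7, of the conjugation of Atg8 proteins, rose by 1.27 (SE 0.22) and 1.25 (SE 0.13). Among 15 other E2 genes, 12 rose at 100 mg/kg, 11 after 200 mg/kg and 2 after TBI, when 2 fell. Ube2k and Ube2m led at both doses, with 2.22 (SE 0.12) and 1.93 (SE 0.14) at 100 mg/kg. In the CTLH ubiquitin ligase, 10 of 11 genes rose at each dose and 4 after TBI, and of 9 SCF partner genes 7, 7 and 4 rose. With total counts 9 of the 15 E2 genes, 7 of the 11 CTLH genes and 4 of the 9 SCF genes fell at each dose, shares below those of all genes that fell on that scale.

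On the TMM scale the other TRIM ligase genes did not share the direction of Trim10 and Trim58. At each dose 8 of 9 tested fell and 1 rose (Trim8, by 2.05, SE 0.20, at 100 mg/kg), and the counts were the same with total counts. On that scale, however, Trim10 had values just below 0 at both doses without passing the test, and Trim58 passed at 200 mg/kg only. Trim11 and Trim39 fell by 2.32 (SE 0.19) and 2.20 (SE 0.15) at 100 mg/kg. Of 13 genes of ISG15 and interferon, the pathway that Ube2l6 serves, 8 rose at each dose, when 4 and 2 fell, and 8 rose after TBI, when 0 fell. Isg15 itself rose by 1.93 (SE 0.20) and 2.41 (SE 0.18) at 100 and 200 mg/kg. After TBI Ifit3 and Oasl2 led, with 5.17 (SE 0.52) and 4.70 (SE 0.40). With total counts the interferon list gave 1 higher and 8 lower for 100 mg/kg, 2 and 7 for 200 mg/kg and again 8 and 0 after TBI. Of 15 glycolysis genes around Bpgm, 9 rose at 100 mg/kg, 7 after 200 mg/kg and 7 after TBI, and with total counts 4, 4 and 6 rose and 7, 8 and 1 fell. After TBI, Pklr, of red cells and liver, had the largest change of the list with 3.29 (SE 1.26, adjusted p = 0.0473), and was at -0.17 without the mice with liver RNA. Tpi1 rose by 1.72 (SE 0.18) and Pkm by 1.65 (SE 0.24).

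Likeness across the 60 mice is given as a description. Among 6728 genes with a mean of at least 10 CPM, those most like the mean of the 10 were F930017D23Rik (r = 0.996), Psme3 (0.995), Bsdc1 (0.995), Rnf11 (0.994) and Tspyl1 (0.993), with correlations of log2(CPM + 1) that stayed between 0.985 and 0.995 within groups. Psme3 encodes a proteasome activator and Rnf11 a ubiquitin ligase. Of the 10 genes themselves, 9 had a correlation of 0.906 to 0.989 with the mean of the other 9. Ulk1 had 0.142 over all mice and 0.732 within groups. The genes nearest to Ulk1, named after their values were seen, were Sec14l1, 6430548M08Rik, Bag3, Atxn1 and Tfe3 (0.981 to 0.966), of which Tfe3 encodes a transcription factor of lysosome and autophagy genes. All points share the library scaling, so these values say nothing of shared control.

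The 10 genes were last set against 15 red cell genes, with libraries scaled to the summed count of that list. On that scale 0 of the 10 fell at 50 mg/kg on Day 0 (0.265% of genes fell), with values from -0.27 to 0.31 for the 9 genes other than Ulk1, and Ulk1 rose by 1.13 (SE 0.23, 76.9% of genes rose). In irradiated against unirradiated mice at 200 mg/kg, 2 of the 10 fell (Bnip3l by 0.63 and Bpgm by 0.66, 0.271% of genes fell) and 2 rose (Ulk1 by 2.67 and Trim58 by 0.59, 79.3% of genes rose). On the same scale 5 of the 10 were lower at 100 mg/kg on Day 1 (74.1% of genes fell) and 7 at 200 mg/kg (78.7% fell). After TBI against vehicle on Day 1, Ulk1 rose by 2.17 (SE 0.48, 12.2% of genes rose) and 3 genes fell (3.07% of genes fell). Without the mice with liver RNA, 1 of the 10 rose after TBI (10.1% of genes rose) and 4 fell (30.0% of genes fell). The highest of the 10 values was then 1.58. Alas2, the first enzyme of heme synthesis in red cells, made up 54.6 to 86.5% of the list's counts. Without Alas2 the lower calls on Day 1 were lost, and Ube2l6 rose at both doses, by 0.90 (5.54% of genes rose) and 0.77 (2.79% of genes rose). The rise of Ulk1 after TBI was 2.69 (SE 0.52, adjusted p = 0.0034, 25.8% of genes rose) without Alas2 and 2.34 with 4 globin genes as the reference. Bpgm also fell without Alas2, by 0.85 (SE 0.26, 1.98% of genes fell).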

How the data were processed

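The deposited values are counts of reads per gene. Per the submitters' processing notes, the authors trimmed reads with Trimmomatic 0.36, mapped them to GRCm38 with STAR 2.5.2b and counted with Subread 1.5.2, and the counting strand is not given in the sources used here. The labels name poly(A) selection and the methods a stranded total RNA kit with globin depletion. The deposited fold change and p-value tables were made with DESeq2 by the authors and were used here for gene symbols only. Genes with at least 10 counts summed over the mice of a fit were tested with the edgeR 4.0.16 quasi-likelihood test in R 4.3.3 (TMM scaling, 12 mice a pair and 24 mice for differences between effects), with Benjamini-Hochberg adjustment over all genes. Rose and fell mean an adjusted p under 0.05. CPM came from a joint scaling of all 60 mice. DESeq2 1.42.0, total counts, other filters, a fit of all mice and leaving out mice with Alb over 1000 CPM were alternatives, and the fits were tested on simulated data. Named list genes were at most 3 per list with the largest absolute log2 fold change. The genes and lists were chosen with earlier results of these data known. Mice were separate animals, several to a cage, and the labels do not give the cages.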

Additional observations from a re-analysis of the deposited data

Results flagged for a closer look

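In a group of 6 mice, a single value was marked where its gap to the nearest other mouse exceeded Dixon's 95% limit for a share of the group's range. This held in 10 of 100 gene and group pairs. The limit marks about 1 in 20 of independent normal samples. These genes moved together within mice, so the 10 marks cannot be set against that rate. Mouse 2, at 50 mg/kg on Day 0, accounted for 6 of them and was the highest of its group each time, with 6792 CPM of Bnip3l, 7377 of Ube2l6, 73.59 of Fbxo7, 319.8 of Trim10, 357.1 of Gabarapl2 and 5790 of Bpgm. The others were single genes, namely Ulk1 at 41.12 CPM in mouse 32 (50 mg/kg, Day 1) and at 79.38 CPM in mouse 42 (100 mg/kg, Day 1), Ube2l6 at 26390 CPM in mouse 22 (200 mg/kg, Day 0) and Fbxo7 at 102.9 CPM in mouse 30 (vehicle, Day 1).

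Effects that differed between groups by edgeR's test of the difference were of 3 kinds, and all values are on the log2 scale with TMM scaling. The TBI effect at 200 mg/kg minus that in vehicle mice was -0.89 for Ulk1, -2.02 for Ube2l6, -1.53 for Fbxo7, -1.48 for Trim58 and -1.55 for Gabarapl2. The 100 mg/kg effect on Day 1 minus that on Day 0 was 1.58 for Bnip3l, 1.57 for Ulk1, 1.32 for Ube2o, 1.91 for Ube2l6, 1.55 for Fbxo7, 1.14 for Fbxo9, 1.26 for Trim10, 1.78 for Trim58 and 1.69 for Gabarapl2. The same difference for 200 mg/kg was 1.18 for Bnip3l, 1.44 for Ulk1, 1.43 for Ube2o, 1.79 for Ube2l6, 1.26 for Fbxo7, 0.90 for Fbxo9, 1.57 for Trim58 and 1.36 for Gabarapl2.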

How the results depend on the processing

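No paired analysis was possible because each mouse has its own number and no number is shared between groups. Scaled to total counts, the genes called of the 10 were 2 at 100 mg/kg on Day 1, 3 at 200 mg/kg on Day 1, 7 for vehicle TBI against vehicle on Day 1 (1 rose, 6 fell), 8 against Day 0 (1 rose, 7 fell, against 14.4% and 14.2% of genes), 0 for 200 mg/kg by TBI, 1 for 100 mg/kg by day and 1 for 200 mg/kg by day. Single genes then reversed. These were Ulk1 at 50 mg/kg on Day 0 (0.059), Ulk1 (-0.069), Ube2o (-0.081), Fbxo9 (-0.33), Trim10 (-0.33) and Bpgm (-0.18) at 100 mg/kg on Day 1, Ulk1 (-0.20), Fbxo9 (-0.14) and Trim10 (-0.015) at 200 mg/kg on Day 1, Ulk1 for 200 mg/kg by TBI (0.26), Fbxo9 (-0.18) and Trim10 (-0.10) for 100 mg/kg by day, and Bnip3l (-0.070), Fbxo7 (-0.0015) and Fbxo9 (-0.34) for 200 mg/kg by day. Of the list genes, Mkln1 (-0.044, 100 mg/kg) and Ranbp10 (-0.18) and Nedd8 (-0.058, both 200 mg/kg) reversed on Day 1. DESeq2 called 3 genes for vehicle on Day 1 against Day 0. The fit of all 60 mice called 2 for vehicle TBI against vehicle on Day 1 (1 rose, 1 fell, against 26.6% and 21.2% of genes). It called 5 for 200 mg/kg by day (14.1% of genes rose). Without mice with Alb over 1000 CPM, 3 were called for vehicle TBI against vehicle on Day 1 and 9 for 200 mg/kg by TBI, and Pklr reversed (-0.17) for vehicle TBI. Leaving out mouse 2, an alternative chosen after seeing the data, left 10 calls at 50 mg/kg on Day 0 (10.2% of genes fell). Relative to red cell genes it left 1, which rose, as did 80.0% of genes.

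Relative to red cell genes, the globin list gave 0 calls at 50 mg/kg on Day 0 (63.9% of all genes rose and 0.449% fell). It gave 2 at 200 mg/kg on Day 1, which fell, as did 77.2% of all genes. The list without Alas2, also chosen after seeing the data, gave 1 for each of the 2 higher doses on Day 1, 1 for vehicle on Day 1 against Day 0 (which rose, as did 45.4% of all genes), and 2 and 4 for vehicle TBI against Day 1 and Day 0 (the 4 rose, as did 64.1% of all genes). It reversed Ulk1 (0.15), Ube2o (0.30) and Bpgm (0.11) at 100 mg/kg, Bnip3l (0.18), Ube2o (0.24), Fbxo7 (0.23), Trim10 (0.0011) and Bpgm (0.070) at 200 mg/kg, and Bnip3l (0.24) for vehicle TBI against Day 0. The cause of these shifts was not tested. Other low-count filters kept each number of the 10 called within 1.5 times. With edgeR's own filter, however, 1 in place of 2 of the 10 had an unadjusted p under 0.05 for vehicle TBI against Day 1 (63.3% of genes). With that filter 50 of all genes rose at 50 mg/kg on Day 1 (10 without a filter) in place of 2.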

Other observations

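Genes of dividing erythroblasts such as Mki67 and Top2a also moved. All 8 rose at 100 and 200 mg/kg on Day 1 (25.0% and 23.6% of all genes rose), from a summed 155.4 to 375.3 CPM in vehicle mice to 871.4 to 962.5 and 672.7 to 1431 CPM. With total counts 5 of 8 rose at each dose (7.72% and 6.63% of all genes rose). In irradiated vehicle mice 4 of 8 rose (24.4% of all genes), with 143.4 to 1228 CPM, and with total counts 1 of 8 (15.3% of all genes). At 50 mg/kg on Day 0, 6 of 8 fell (9.87% of all genes), and with total counts 3 of 8 (3.61% of all genes). Dividing white cells also express these genes, so the list does not name the cell.

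The transcription factor genes Gata1 and Nfe2, of the other late erythroid list, rose after TBI by 2.73 (SE 0.37, adjusted p = 9.2e-05) and 2.14 (SE 0.31, adjusted p = 0.000148) on the log2 scale in edgeR's test, against vehicle on Day 1. Of that list 9 of 20 rose and 0 fell (24.4% and 22.4% of all genes), and with total counts 6 rose and 5 fell (15.3% and 27.5% of all genes). Both genes are also expressed in platelets, whose 7 marker genes rose in the same mice.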
